A study of Mus musculus with 2 samples.

Results

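The 10 genes described here encode peptide hormones of enteroendocrine cells, the sparse hormone-secreting cells of the gut epithelium. They were taken as a named set, Gip, Ghrl, Cck, Sct, Gcg, Pyy, Insl5, Nts, Sst and Tac1, out of 17305 genes that had a probe set annotated to exactly 1 gene symbol, with the brightest such probe set standing for a gene. Their values came from 2 single-channel arrays, 1 per group. The graft group was small intestinal epithelium of EGFP-transgenic mice of C57BL6 background, grown for 7 days as organoids, instilled into the colonic lumen of C57BL6 recipient mice and collected 4 weeks after transplantation. The colon group was normal colonic epithelium of a control C57BL6 mouse. Both epithelia were cut out by laser microdissection, about 30 serial sections of each specimen were pooled, and 4.33 ng of total RNA per sample was amplified. The labels give no sex or age for either mouse. The array of each group came from the specimen with the highest RNA integrity, so it stands for 1 mouse.

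Enteroendocrine cells are classed by the hormones they store, and the hormones are spread unevenly along the gut. K cells, which make GIP, and I cells, which make cholecystokinin, lie mainly in the duodenum and jejunum, together with cells that make secretin. Cells that make ghrelin are also found in the proximal gut. L cells, which make the proglucagon peptides and peptide YY, become more frequent towards the ileum and colon, and INSL5 is made by L cells of the colon and rectum. Neurotensin is mainly an ileal hormone, and the cells that make somatostatin or tachykinins occur along the whole gut. On this basis Gip, Ghrl, Cck and Sct were taken as proximal hormone genes, Gcg, Pyy and Insl5 as distal ones, and Nts, Sst and Tac1 were kept apart.

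The proximal and distal hormone genes lay on opposite sides of the comparison, with Sct as the exception among the proximal genes. Gip, Ghrl and Cck were higher in the graft than in the colon by 1.42 to 2.76 on the log2 scale, and Gcg and Pyy had differences of -3.27 and -3.46 on that scale, 9.63-fold and 11.0-fold lower in the graft. Insl5 had a measured difference of -3.55, whose size is not determined because its graft value lay near the low end. The size for Cck is not determined either, because of its colon value. The graft value of Gcg and the colon value of Gip lay below their arrays' medians, which limits how exactly those 2 sizes are known. Of the 10 genes, 4 passed 2-fold upwards in the graft and 4 passed it downwards, where 1.93% of all 17305 genes were that much higher and 3.09% that much lower. At 4-fold, 1 gene was higher and 3 were lower, against 0.595% and 0.745% of all genes. A set of genes was also counted whose higher value reached the median of all gene values, 5.48 on the log2 scale. It held 9392 genes, of which 3.55% passed 2-fold upwards in the graft and 5.68% downwards, with 1.10% and 1.37% at 4-fold. All 10 hormone genes except Nts were in it, and Gip, Cck, Gcg and Insl5 entered it through 1 array only. With 1 array per group no test is possible and no difference has a replicate check. In epithelium measured in bulk, fewer cells of a hormone type and less hormone RNA per cell cannot be told apart.

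**Figure D1:**
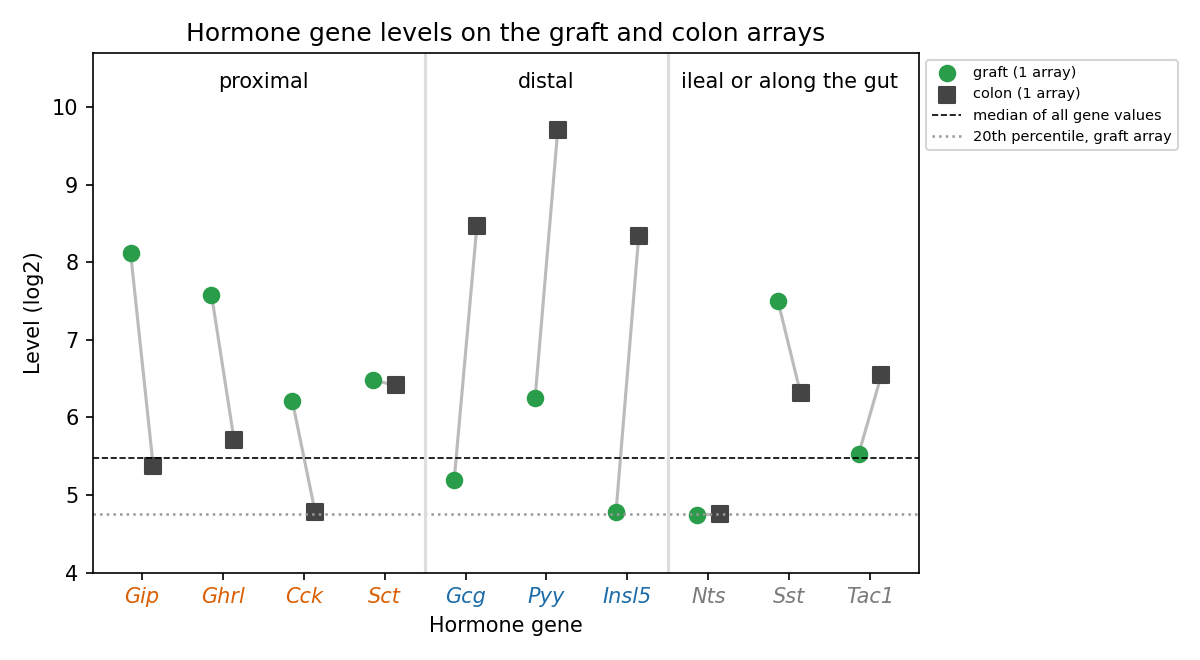
Levels of the 10 hormone genes on the log2 scale (y axis) for each gene (x axis), with the graft array as circles to the left and the colon array as squares to the right. The dashed line is the median of all gene values, 5.48, and the dotted line the 20th percentile of the graft array, 4.75; Gip, Ghrl, Cck and Sst lie higher on the graft array, and Gcg, Pyy, Insl5 and Tac1 higher on the colon array.

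The error of these values is known only indirectly. Each of the 10 genes has a single probe set, so none has an error of its own. Over 586 other genes with 2 probe sets at the median level, the difference between graft and colon varied between probe sets of 1 gene with an SD of 0.48 on the log2 scale, which leaves out the variation between mice. Differences between hormone genes that are smaller than this SD are not ordered here. On that measure Gip stood above Ghrl by 0.88, whereas Ghrl, Cck and Sst followed each other at gaps of 0.45 and 0.23. Sct and Nts were 0.07 apart, and Gcg, Pyy and Insl5 lay 0.19 and 0.10 apart. The widest gap in the order, 2.25, separated Tac1 from Gcg.

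Gip encodes glucose-dependent insulinotropic polypeptide, the incretin released by K cells after a meal. Its level was 8.12 on the graft array, against 5.37 on the colon array, a difference of 2.76 or 6.75-fold. The colon value lay below the median of its array, 5.43, and the graft value was above 91.3% of the probe sets on its array. With values below each array's median raised to it, the Gip difference was 2.69. Of all 17305 genes, Gip ranked 49 from the top by difference. Ghrl, the gene of the appetite-stimulating hormone ghrelin, had a level of 7.58 on the graft array, against 5.71 on the colon array, 3.67-fold higher. Both values were above the arrays' medians. Cck, which encodes cholecystokinin, the hormone that drives gallbladder contraction and pancreatic enzyme release, was at 6.21 on the graft array, against 4.79 on the colon array, 2.68-fold higher. The colon value was close to the 20th percentile of that array, 4.74, where signal cannot be separated from background, so the size of this difference is not determined. With values below each array's median raised to it, the Cck difference was 0.78, under 2-fold. Sct, the gene of secretin, which stimulates bicarbonate secretion, was at 6.48 on the graft array, against 6.41 on the colon array. That difference of 0.07 is a small part of the probe set SD, and both levels were well clear of the low end. Its sign turned, to -0.08, when the median of the general epithelial markers was subtracted. Sct therefore did not share the direction of the other proximal genes.

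The 250 bases before each start site were taken from RefSeq's promoter table (build GRCm38.p6), in which all 10 hormone genes matched, with 15 windows in all. The Gip and Cck windows were chosen because they carry the GATA core, the short motif bound by GATA factors. The windows of the other proximal genes, Ghrl and Sct, hold none. Gata4, a GATA factor of the proximal small intestine, was at 7.76 on the graft array, against 5.15 on the colon array. Another GATA factor gene, Gata6, was at 7.53 on the graft array, against 7.23 on the colon array, so not every GATA factor differed as Gata4 did. Whether either factor acts on these genes was not tested. Capitals mark GATAA on either strand, and all sequences run 5′ to 3′ and end at the base before the start site.
Gip promoter, GRCm38.p6 chr11:96024295-96024544, + strand: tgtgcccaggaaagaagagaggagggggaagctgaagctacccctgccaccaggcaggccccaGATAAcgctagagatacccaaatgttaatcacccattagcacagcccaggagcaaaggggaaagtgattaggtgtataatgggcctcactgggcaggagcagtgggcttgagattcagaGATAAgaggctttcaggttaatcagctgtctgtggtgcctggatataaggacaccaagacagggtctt
Cck promoter, GRCm38.p6 chr9:121495695-121495944, - strand: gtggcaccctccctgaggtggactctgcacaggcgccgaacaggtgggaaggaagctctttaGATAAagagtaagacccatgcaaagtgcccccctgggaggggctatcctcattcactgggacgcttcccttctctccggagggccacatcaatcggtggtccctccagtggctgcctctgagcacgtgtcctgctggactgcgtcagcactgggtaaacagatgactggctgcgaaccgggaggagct
The Gip window holds 2 GATA cores, whose first bases lie 187 and 68 bases before the start site. The Cck window holds 1, at 188 bases. Over all 32851 windows of the table, 22.6% held at least 1 GATA core, 4.28% at least 2 and 0.712% at least 3. Pdx1, a duodenal and pancreatic homeobox factor known to act on Gip, was at 7.13 on the graft array, against 5.06 on the colon array. The homeodomain core TAAT occurred 5 times in the Gip window and 0 times in that of Cck. In all, 7 of the 10 hormone genes had it in at least 1 window, namely Gip, Sct, Gcg, Insl5, Nts, Sst and Tac1. It was thus also found in distal genes that were lower in the graft. Over all windows, 54.9% held it at least once and 17.3% at least 3 times. An action of Pdx1 in these samples was not tested.

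The distal hormone genes were all lower in the graft, with measured differences from -3.55 to -3.27. Gcg encodes proglucagon, from which L cells cut the glucagon-like peptides. Its level was 5.20 on the graft array, against 8.47 on the colon array, a difference of -3.27 or 9.63-fold. The graft value was below the median of its array, 5.44, and within the graft range of the gastric markers, 4.59 to 5.21. Its size is therefore limited at the low end. With values below each array's median raised to it, the Gcg difference was -3.03. Pyy encodes peptide YY, an L cell hormone that slows gut transit and reduces appetite. It was at 6.25 on the graft array, against 9.71 on the colon array, a difference of -3.46 or 11.0-fold. Of the 3 distal genes it was the only one whose graft value stayed above its array's median. Insl5, an insulin-like peptide of colonic L cells, was at 4.78 on the graft array, against 8.34 on the colon array, a difference of -3.55 or 11.7-fold. Its graft value was close to the 20th percentile of 4.75, where signal cannot be separated from background, so the size of this difference is not determined. With values below each array's median raised to it, the Insl5 difference was -2.90. All 3 genes were among the 36 lowest of 17305 genes by measured difference. On the colon array all 3 genes were above at least 92.0% of the probe sets.

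The distal start regions are printed for comparison with that of Gip, again with GATAA on either strand in capitals. RefSeq gives 2 windows for Insl5 that do not overlap, and both are shown. It also gives 2 overlapping windows for Pyy, of which the upstream one is shown. Which window belongs to the transcript on the array was not determined.
Gcg promoter, GRCm38.p6 chr2:62483654-62483903, - strand: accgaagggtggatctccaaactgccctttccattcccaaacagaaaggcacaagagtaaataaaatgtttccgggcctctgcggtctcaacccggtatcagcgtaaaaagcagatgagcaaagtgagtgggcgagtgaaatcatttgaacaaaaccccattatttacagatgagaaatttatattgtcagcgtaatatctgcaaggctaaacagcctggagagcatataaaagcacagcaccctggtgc
Pyy promoter, GRCm38.p6 chr11:102107833-102108082, - strand: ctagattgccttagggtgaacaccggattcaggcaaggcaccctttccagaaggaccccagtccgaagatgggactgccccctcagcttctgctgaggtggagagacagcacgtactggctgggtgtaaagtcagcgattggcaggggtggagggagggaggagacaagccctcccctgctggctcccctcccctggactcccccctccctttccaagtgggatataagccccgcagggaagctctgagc
Insl5 upstream promoter, GRCm38.p6 chr4:103027272-103027521, - strand: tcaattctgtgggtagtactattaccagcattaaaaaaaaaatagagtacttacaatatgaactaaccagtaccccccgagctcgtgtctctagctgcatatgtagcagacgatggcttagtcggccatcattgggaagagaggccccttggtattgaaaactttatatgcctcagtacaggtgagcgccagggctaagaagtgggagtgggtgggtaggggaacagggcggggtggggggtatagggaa
Insl5 downstream promoter, GRCm38.p6 chr4:103026729-103026978, - strand: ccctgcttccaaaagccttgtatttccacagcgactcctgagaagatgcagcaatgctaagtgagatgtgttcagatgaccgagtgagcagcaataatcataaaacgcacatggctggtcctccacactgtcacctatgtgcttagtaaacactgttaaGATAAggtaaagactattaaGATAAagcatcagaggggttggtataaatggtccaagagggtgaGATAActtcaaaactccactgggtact
No GATAA is present in the windows of Gcg and Pyy or in the upstream Insl5 window. The downstream Insl5 window holds 3, at 91, 71 and 27 bases before the start site, more than that of Gip. Across the 10 hormone genes, 5 had the GATA core in at least 1 window, namely Gip and Cck, which were higher in the graft, Insl5 and Tac1, which were lower, and Nts. The core was thus found on both sides of the comparison. The Cdx core TTTAT, bound by the intestinal Cdx factors, occurred 3 times in the Gcg window and 3 times in the downstream Insl5 window. It occurred 0 times in the windows of Pyy and Gip. In all, 6 of the 10 genes had it in at least 1 window, namely Cck, Sct, Gcg, Insl5, Sst and Tac1. At least 1 match was present in 37.3% of all windows, and at least 3 in 5.69%. The E-box CANNTG, the motif of factors such as NeuroD1, was found in at least 1 window of all 10 genes, though not in every Ghrl window. Over all windows, 66.2% held it. Counts over genes accept a match in any window of a gene, so they are not directly comparable with shares over windows. The cAMP response element TGACGTCA was found only in the Sst window among the 10 genes, and in 1.55% of all windows. Motifs were searched on both strands and overlapping matches of different motifs were each counted. A match is a description of the sequence and not a bound site.

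**Figure D2:**
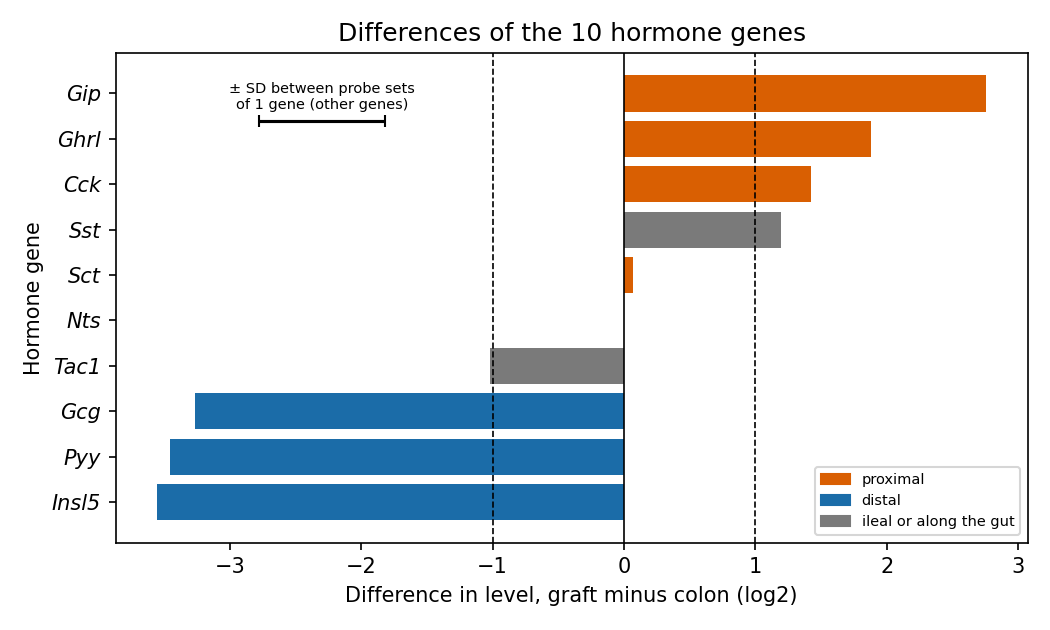
Differences in level, graft minus colon, on the log2 scale (x axis) for the 10 hormone genes (y axis), with bars coloured by gut region and dashed lines at 2-fold. The bracket shows the SD of 0.48 between probe sets of 1 gene; Gip is highest at 2.76, Sct and Nts lie near 0, and Gcg, Pyy and Insl5 lie between -3.27 and -3.55.

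The contrast between proximal and distal hormones was summarised by list medians. The 4 proximal genes had a median difference of 1.65, with a range of 0.07 to 2.76, and the 3 distal genes a median of -3.46, with a range of -3.55 to -3.27. The medians differed by 5.11 on the log2 scale. The ranges did not overlap, and the lowest proximal gene, Sct, stood 3.34 above the highest distal gene, Gcg. This is a description of 2 arrays, since genes are not replicates of a condition. Over all 17305 genes the median difference was 0, and over the 9392 genes that reached the median level it was -0.05. Summed as linear signal, the proximal genes gave 634 units on the graft array, against 206 on the colon array, a ratio of 3.07. The distal genes gave 141 units on the graft array, against 1515 on the colon array, a ratio of 0.0928. No background was subtracted from these sums. Gcg and Insl5 in the graft and Gip and Cck in the colon lay below their arrays' medians, so both ratios are limited at the low end.

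The genes with no proximal or distal assignment went in different directions. Sst encodes somatostatin, the inhibitory hormone of D cells, and was at 7.51 on the graft array, against 6.31 on the colon array, 2.29-fold higher. Tac1 encodes the tachykinins, including substance P, which are made by enterochromaffin cells and by enteric neurons. It was at 5.53 on the graft array, against 6.55 on the colon array, a difference of -1.02 or 2.02-fold, just past the 2-fold threshold. With quantile normalization the Tac1 difference was -0.98 and did not reach it. Nts, the neurotensin gene, was at 4.75 on both arrays, near the 20th percentile of each, so no difference was detectable at this signal. Enteric neurons also express Sst and Tac1. Of 14 neuron and glia markers 9 were measured, and all 9 stayed below the median level on both arrays, between 4.67 and 5.46 in the graft and between 4.60 and 5.31 in the colon. Their summed linear signal was 294 on the graft array, against 273 on the colon array. No background was subtracted, and at these levels the sums cannot show how much neuronal RNA either sample held.

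The hormone genes can also be ordered by the form of the mature peptide. Cholecystokinin, secretin, the shorter active form of glucagon-like peptide, peptide YY and substance P end in an amide that the enzyme PAM adds. The genes of these peptides had differences of 1.42 for Cck, 0.07 for Sct, -3.27 for Gcg, -3.46 for Pyy and -1.02 for Tac1. The other 5 genes, whose hormones carry no such amide, ran from 2.76 for Gip to -3.55 for Insl5. Both kinds of peptide were therefore present on both sides. Pam itself was at 6.68 on the graft array, against 8.85 on the colon array, 4.51-fold lower in the graft. Of 11 measured genes for prohormone processing, 2 passed 2-fold upwards and 2 downwards in the graft, where 1.93% and 3.09% of all genes did, and the list's median was -0.13. The same shares of all genes apply to the counts of the other lists. Pcsk5, a proprotein convertase, was 3.32-fold higher at 6.58 on the graft array, against 4.85 on the colon array. The colon value of Pcsk5 lay well below its array's median, 5.43, so that size is limited at the low end. Cpe, a carboxypeptidase that trims peptide ends in granules, was 2.44-fold higher at 7.69 on the graft array, against 6.40 on the colon array. The related carboxypeptidase gene Cpd had a difference of -1.08. Pcsk1, the main convertase of enteroendocrine cells, was below the median level on both arrays, at 4.88 on the graft array, against 5.09 on the colon array. Pam, Cpe, Cpd and Pcsk5 are also expressed outside endocrine cells.

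Genes for endocrine granules and exocytosis, which enteroendocrine cells share whatever hormone they make, had small measured differences, many of them at dim levels. Of 18 measured genes, 0 were 2-fold apart in either direction, close to the shares of 1.93% higher and 3.09% lower over all genes. The list's median was -0.06, and -0.30 over the 6 members that reached the median level. The granule protein genes Chga and Chgb, which mark enteroendocrine cells in general, were above the median of both arrays. Chga was at 6.37 on the graft array, against 6.51 on the colon array, and Chgb at 7.40 on the graft array, against 7.46 on the colon array. Resp18, Syt7 and Snap25 had differences of -0.83, -0.68 and -0.44, and Ptprn2 of 0.32. When the granule list's median was subtracted, Gip had a difference of 2.82, Pyy of -3.39 and Tac1 of -0.95. Tph1, which makes serotonin in enterochromaffin cells, was at 5.36 on the graft array, against 5.37 on the colon array, below the median level on both arrays.

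**Figure D3:**
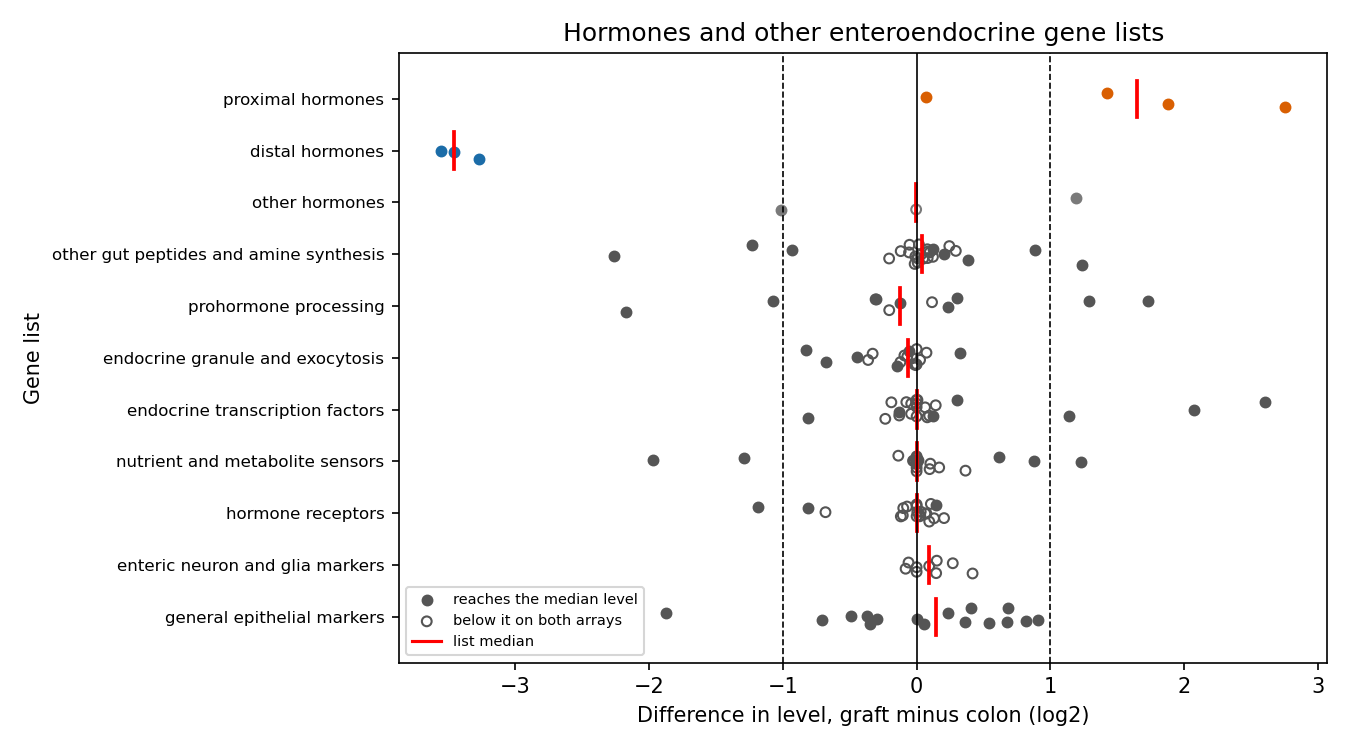
Differences in level, graft minus colon, on the log2 scale (x axis) for the genes of 11 lists (y axis), with filled points for genes that reach the median level on an array, open points for the others and a red line at each list's median. The proximal and distal hormones have medians of 1.65 and -3.46, and the medians of the other 9 lists lie between -0.13 and 0.15.

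Other gut peptides were mostly at the low end. Of 26 measured genes for further peptides and for amine synthesis, 18 stayed below the median level on both arrays, 1 passed 2-fold upwards and 2 downwards in the graft, and the list's median was 0.04. Ppy, which encodes pancreatic polypeptide, belongs to the same peptide family as Pyy and is its direct neighbour in RefSeq's gene table. It was at 5.76 on the graft array, against 8.02 on the colon array, 4.79-fold lower in the graft and thus on the same side as Pyy. Ppy is also a pancreatic islet gene, and the islet genes Ins2 (4.89 in the graft, 4.84 in the colon) and Iapp (4.59 in the graft, 4.65 in the colon) lay at the low end of both arrays. Of the 7 measured genes of the pancreatic islet and acinar list, 5 were below the median level on both arrays, and Cela1, an elastase gene, had a difference of -2.09. Guca2a, the gene of guanylin, had a difference of -1.23 at 9.59 on the graft array, against 10.83 on the colon array. Penk, the enkephalin precursor gene, had a measured difference of 2.36-fold, at 6.04 on the graft array, against 4.80 on the colon array. That colon value was close to the 20th percentile of its array, 4.74, so the size of this difference is not determined. Ddc and Grp had differences of -0.93 and 0.89. All 7 measured gastric epithelial markers were below the median level on both arrays, between 4.59 and 5.21 in the graft and between 4.51 and 5.21 in the colon.

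The genes of the endocrine transcription factor list, not all of them specific to enteroendocrine cells, were mostly too dim to compare. Of 22 measured genes, 15 were below the median level on both arrays, 3 passed 2-fold upwards and 0 downwards in the graft, and the list's median was 0. The 3 higher genes were Gata4 (6.09-fold), Pdx1 (4.21-fold) and Mlxipl (2.20-fold), which are also expressed in absorptive cells of the small intestine or in other epithelial cells. The colon values of Gata4 and Pdx1, 5.15 and 5.06, lay below their array's median, 5.43, so their sizes are limited at the low end. Foxa2, which is expressed broadly in gut endoderm, had a difference of -0.81 and Foxa1 of -0.13. Neurod1 was at 4.50 on the graft array, against 4.68 on the colon array, and Isl1 at 4.89 on the graft array, against 4.82 on the colon array, below the median level. Pax6, Insm1, Nkx2-2 and Neurod2 had exactly the same value on both arrays. Of all probe sets, 12.1% had equal values on both arrays, and of all 17305 genes 2180 did. Among the 10 hormone genes there were 0, but 10 genes are too few to set against that share.

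Receptors that let enteroendocrine cells sense nutrients, and receptors for the hormones themselves, gave few measurable values. Of 22 measured sensor genes, 16 were below the median level on both arrays, and 8 had exactly equal values. Ffar4, the long-chain fatty acid receptor found on L cells among others, was at 4.96 on the graft array, against 6.25 on the colon array, 2.44-fold lower in the graft. Its graft value lay below its array's median, 5.44, so that size is limited at the low end. The peptide transporter gene Slc15a1 had a difference of -1.97 and the sodium-glucose transporter gene Slc5a1 of 0.88, and both serve mainly absorptive cells. Trpm5, a taste-signalling channel gene that is also a tuft cell gene, was 2.35-fold higher in the graft. Its colon value, 5.31, lay below its array's median, 5.43. The sensor list had 1 gene at least 2-fold higher and 2 at least 2-fold lower, with a median of 0. Of 21 measured hormone receptor genes, 18 were below the median level on both arrays, 0 passed 2-fold upwards and 1 downwards, and the list's median was 0.01. That gene was Sstr1, a somatostatin receptor, at 4.56 on the graft array, against 5.75 on the colon array. Its graft value lay below the 20th percentile of that array, 4.75, so the size of this difference is not determined. Sort1, which binds neurotensin among other ligands, had a difference of -0.81. Ghsr, the ghrelin receptor gene, had a difference of 0.14 at 5.73 on the graft array, against 5.59 on the colon array.

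The makeup of the microdissected samples was described with 2 further lists. All 16 general epithelial markers reached the median level, with a median difference of 0.15 and summed linear signals of 17852 on the graft array, against 16230 on the colon array, a ratio of 1.10. Krt18 and Cdx2 had differences of 0.91 and 0.82, and Phgr1 and Cldn3 of -1.87 and -0.71. Of 14 measured stromal and immune markers, 0 passed 2-fold upwards and 1 downwards, with a list median of -0.10 and summed signals of 834 on the graft array, against 1024 on the colon array. Lum, a stromal proteoglycan gene, had a difference of -1.76 and Dcn of -0.62, while the leukocyte genes Ptprc and C1qb had differences of 0.78 and 0.73. The part of these cells in the hormone differences was not tested. No ungrafted small intestine was analysed here, so the levels of the proximal hormones in the graft cannot be set against those of their tissue of origin.

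**Figure D4:**
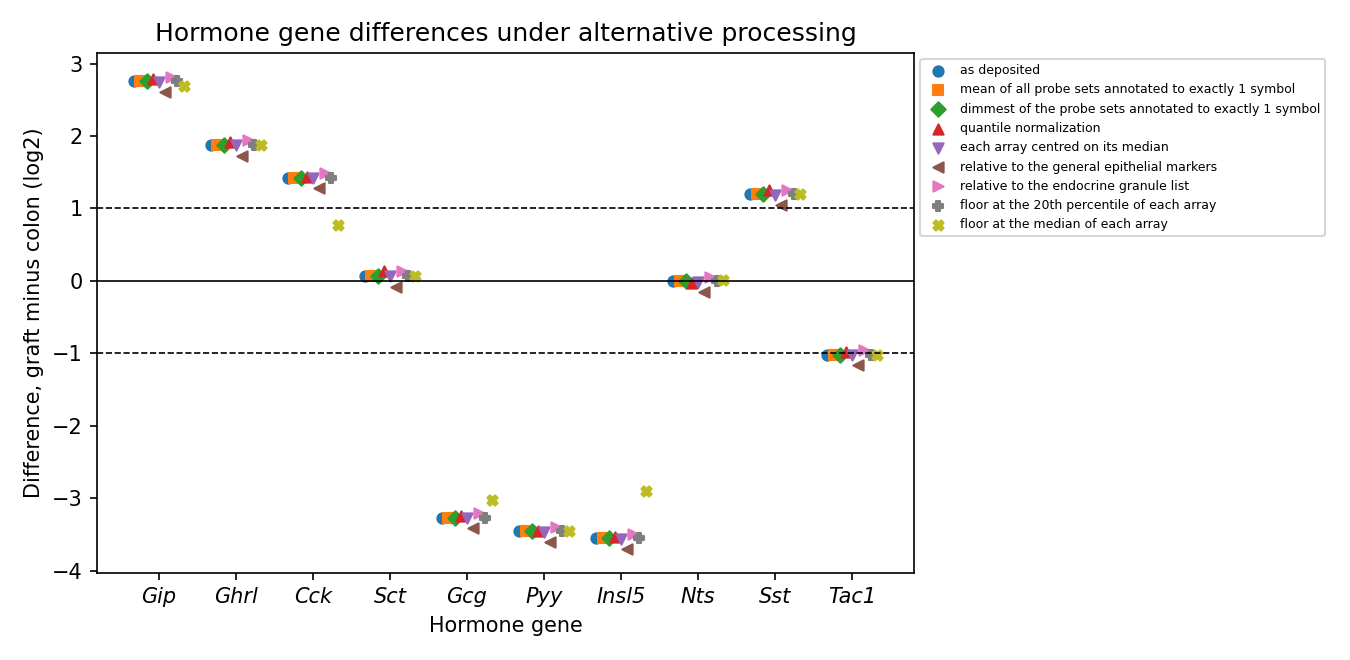
Differences in level, graft minus colon, on the log2 scale (y axis) for the 10 hormone genes (x axis), as deposited and under 8 other ways of processing the values, with dashed lines at 2-fold. The largest shifts are those of Cck to 0.78 and of Insl5 to -2.90 when values below each array's median were raised to it; Gip stays between 2.61 and 2.82, and Pyy between -3.60 and -3.39.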

How the data were processed

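The authors deposited log2 expression values of 24074 probe sets for the 2 arrays. The log2 scale was inferred from their range, 4.19 to 13.37 in the graft and 4.22 to 13.46 in the colon. The submitters' sources used here do not name the array software, background correction or normalization. The sorted columns differ by at most 0.25 and have medians of 5.44 in the graft and 5.43 in the colon, so the arrays were on a common scale. Whether they were also centred is unknown. Amplification of small amounts of RNA, per the labels' protocols, can distort single transcripts. No detection call comes with the values, and 21.8% of the graft values and 20.3% of the colon values are shared by several probe sets.

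Gene names came from the platform's annotation, which gave 1 symbol for 18904 probe sets, several for 1330 and none for 3840. Only the first kind was used. Each difference subtracts the colon value from the graft value, without further normalization, computed with Python 3.11.15 and pandas 2.3.3. Counts were made at 2-fold and 4-fold, and the counting script was tested on simulated data. A single array per group allows no p-value, and the number of arrays limits precision.

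The 10 hormone genes and all gene lists were chosen with earlier results of these data known. Genes were named by a fixed rule: all 10 hormones, up to 4 genes of each other list with the largest absolute difference among those reaching the median level, up to 2 of the opposite sign, and 7 preset genes. Beyond the rule, Ins2, Iapp, Gata6, Pax6, Insm1, Nkx2-2 and Neurod2 were named as examples after their values were seen.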

Additional observations from a re-analysis of the deposited data

How the results depend on the processing

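No paired analysis was possible because each group has 1 array. Of 135 recomputed values, at least 29 could not move by construction. For these the hormone genes have 1 probe set each, or a shift common to all genes cancels in the contrast. Some of the other 106 were fixed in advance as well. A floor leaves a gene unchanged when both its values lie above it, and a list whose members all reach the median level keeps its median. Of these 106, 100 moved by less than the probe set SD of 0.48, or, for counts, by less than 1.5 times, and 0 called values changed sign. That count therefore includes values that could not move. Raising values below each array's median to it moved the difference of Cck to 0.78, which is under 2-fold, that of Insl5 to -2.90, and the proximal minus distal contrast to 4.35; this alternative removes signal at the low end by construction. Over its 12 alternatives outside the 29, that contrast lay between 4.35 and 5.33, including each gene left out in turn. The floor at the 20th percentile, among these 12, could not move the contrast either. At 4-fold in place of 2-fold, 1 hormone gene was higher in the graft. Tac1 lay under 2-fold with quantile normalization (-0.98) and relative to the endocrine granule list (-0.95), which left 3 hormone genes lower. Over only the members that reached the median level, the median of the hormone receptors was -0.81 (3 genes) and that of the pancreatic islet and acinar list -2.17 (2 genes). Levels near the 20th percentile, as for Nts on both arrays, Cck and Penk in the colon and Insl5 in the graft, limit what these arrays can show. The size of any difference with a value below its array's median is limited at the low end too.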
